A study of Homo sapiens with 12 samples.

Results

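The genes of cholesterol synthesis and of the SREBP system were followed across 4 treatments of A375, a human melanoma cell line. The 31 member genes were taken by symbol from the 20263 genes of the deposited expression table, and all 31 passed the filter on low counts that left 14287 genes for testing. They were 18 enzymes from acetyl-CoA to cholesterol, 5 genes of the SREBP system, the sterol transporter STARD4, 4 genes of fatty acid synthesis and 3 targets of the LXR receptors. RNA-seq was done on 12 libraries of total RNA from wild-type A375 cells, with 3 libraries for each of Ctrl (untreated), DBIC, Hemin and DBIC+Hemin. DBIC is the label's name for the compound that the study calls DdBIC, a dodecyl ester of a benzimidazole carboxylic acid that the study uses to cause pyroptosis, a lytic form of cell death. Hemin is the oxidised form of heme, and the study asked which genes respond to the compound and how adding hemin changes that response. The dose and the duration of the treatments behind these libraries are not given in the sources used here.

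The study's methods state that serum in the medium was lowered during treatment with the compound. They do not state the serum of the Ctrl and Hemin cultures used for RNA-seq, so an effect of serum, if it differed, cannot be told apart from that of the compound. Only 1 cell line was used, and the labels do not say that the libraries of a group came from separate cultures, so the p-values measure the spread between these libraries, which may be technical. In bulk RNA, a smaller number of expressing cells and less RNA per cell cannot be told apart.

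Cholesterol is built from acetyl-CoA through the mevalonate pathway, which ends in farnesyl diphosphate, and then through squalene, lanosterol and the sterol ring steps. The transcription factors SREBP-1 and SREBP-2, encoded by SREBF1 and SREBF2, are held in the endoplasmic reticulum as precursors. When sterols are low, SCAP escorts them to the Golgi, where proteases release the active factor, which turns on the genes of sterol and fatty acid synthesis. INSIG1 and INSIG2 hold SCAP back when sterols are high, and the LXR receptors answer oxysterols by turning on genes of sterol export. The activity of SREBP depends on its processing, which RNA levels do not measure.

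The libraries held 37951275 to 44358912 counts, and libraries of 1 group had correlations of log2 CPM (counts scaled to the library total) across tested genes of 0.992 to 0.993. HMOX1, the heme-degrading enzyme that heme induces, was at 7.26 to 9.19 CPM in the 6 libraries without hemin, at 61.9 to 65.5 CPM in Hemin and at 146 to 188 CPM in DBIC+Hemin, so the libraries labelled with hemin separated from the others. Of 8 genes of the melanocyte lineage, 4 reached 1 CPM in some library. The neural crest factor SOX10 was at 548 to 769 CPM and MITF at 8.31 to 21.5 CPM, whereas the pigment enzyme DCT was at 0.13 to 0.42 CPM. Most of the summed level of these 8 genes was that of SOX10, so the sum does not describe the lineage list as a whole. The sum ranged from 643 to 670 CPM in Ctrl and 736 to 797 CPM in DBIC. It ranged from 571 to 578 CPM in Hemin and 577 to 667 CPM in DBIC+Hemin, and its part in the results was not tested. The 3 endothelial markers summed to at most 2.03 CPM and the 4 fibroblast markers to at most 14.9 CPM in any library. The 4 keratinocyte markers summed to 50.1 to 66.1 CPM, most of it KRT10, and the 4 immune markers to 22.2 to 31.3 CPM, most of it CD68, and the part of these markers in the results was not tested.

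Levels of different genes were compared only per length, on the deposited TPM scale (reads per length of transcript, scaled to the same sum in each library). In untreated cells, 3 of the 4 fatty acid genes and FDPS led the list. FASN, the fatty acid synthase, was highest at 323 ± 3.46 TPM (SD, n = 3), followed by ACLY, which makes cytosolic acetyl-CoA, at 226 ± 3.32 TPM and FDPS, which makes farnesyl diphosphate, at 223 ± 8.04 TPM. The ranges of ACLY and FDPS overlapped. SCD, the stearoyl-CoA desaturase, was next at 196 ± 2.94 TPM, and SREBF1 stood at 173 ± 0.416 TPM against 62.0 ± 1.92 TPM for SREBF2. ACACA, the other fatty acid gene, was at 53.1 ± 5.81 TPM. In all, 5 members were at 100 TPM or more, 23 lay between 10 and 100 TPM, INSIG2 was at 5.10 ± 0.777 TPM, and the LXR targets ABCG1 and ABCA1 were at 0.268 ± 0.114 and 0.136 ± 0.0540 TPM. Of the 30 pairs of neighbours in this order, 15 had overlapping ranges among the Ctrl libraries, so the order is not fixed within those pairs.

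**Figure D1:**
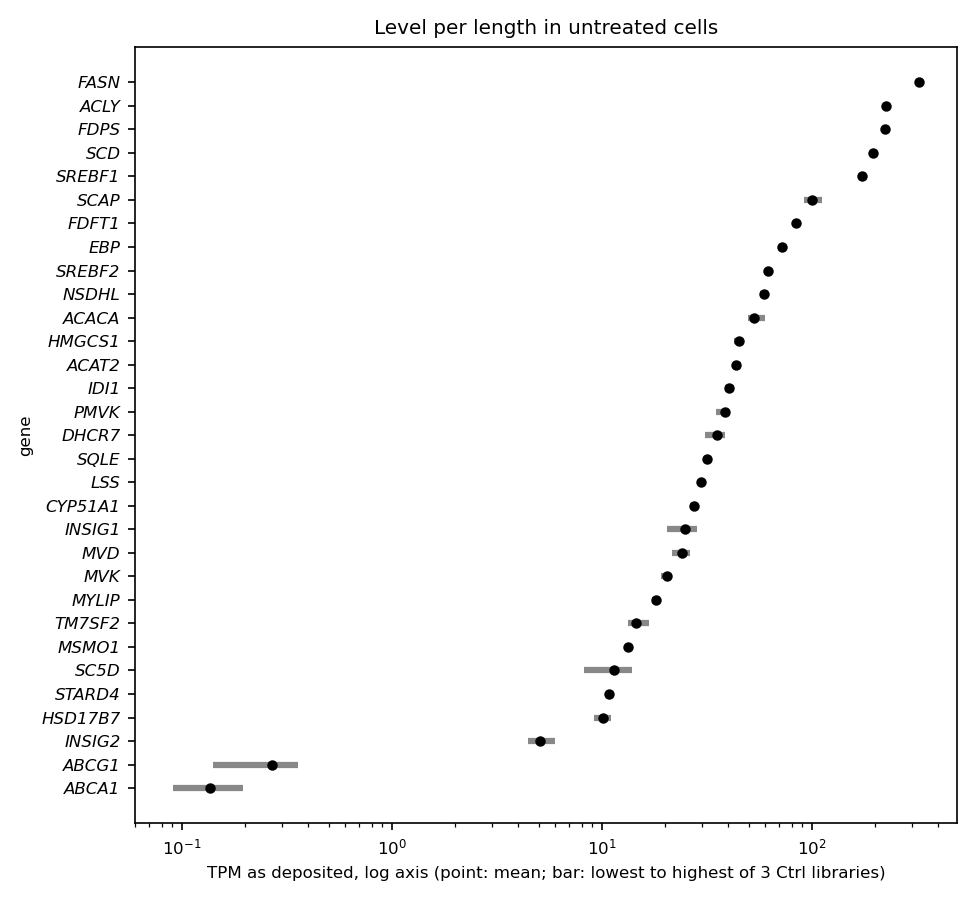
Level of the 31 genes in the 3 Ctrl libraries in deposited TPM on a log axis, with points for the mean and bars from the lowest to the highest library. FASN is at the top with 323 TPM, and ABCG1 and ABCA1 lie below 1 TPM.

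DBIC alone lowered much of the pathway, with the genes of fatty acid synthesis among the largest falls, while HMGCS1, IDI1 and STARD4 rose. At an adjusted p under 0.05 (edgeR's quasi-likelihood test, Benjamini-Hochberg over all 14287 genes), 15 of 31 members fell and 3 rose. Over all genes tested, 17.2% were called lower and 20.0% higher in this comparison. The median log2 fold change of the members was -0.20, against -0.01 for all genes. Among the 18 enzymes of cholesterol synthesis, 9 fell and 2 rose, and 15 had a negative log2 fold change. All 4 genes of fatty acid synthesis fell.

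Gene positions are those of the deposited table, on hg38. SCD (chr10:100347124-100364834, plus strand), which puts the double bond into saturated fatty acids, was the member with the largest called change under DBIC alone. Its level was 512, 502 and 501 CPM in Ctrl, 315, 327 and 311 CPM in DBIC, 599, 580.3 and 594 CPM in Hemin, and 400.1, 390.4 and 402 CPM in DBIC+Hemin. The 4 groups did not overlap, with Hemin highest and DBIC lowest. The fall under DBIC was 37.1% (log2 fold change -0.67 ± 0.03 SE, adjusted p = 8.11e-09), and the rise under Hemin alone was 1.17-fold (adjusted p = 0.000682). With both agents SCD was 1.25-fold above DBIC alone (adjusted p = 3.54e-06) and still below Ctrl (log2 fold change -0.35 ± 0.03, adjusted p = 8.54e-06).

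The other 3 genes of fatty acid synthesis also fell under DBIC, by less than SCD. FASN fell by 22.7%, from 1226 to 1258 CPM in Ctrl down to 907 to 993 CPM in DBIC. ACACA, the acetyl-CoA carboxylase that makes malonyl-CoA, fell by 20.0% (adjusted p = 2.58e-05) and ACLY by 19.9% (adjusted p = 8.56e-07). In these 3 genes the DBIC libraries lay below every Ctrl library. The call for ACACA was lost when the deposited TPM were tested with limma (adjusted p = 0.0672), the only alternative that ended one of these 4 calls.

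The mevalonate steps moved in both directions under DBIC. HMGCS1 (chr5:43289395-43313512, minus strand), the synthase that makes HMG-CoA, was at 77.0, 69.9 and 72.9 CPM in Ctrl, 106, 83.7 and 145 CPM in DBIC, 94.7, 62.4 and 63.7 CPM in Hemin, and 55.6, 59.7 and 56.3 CPM in DBIC+Hemin. Every DBIC library was above every Ctrl library, but the DBIC libraries were widely spread, and 1 Hemin library stood above the other two. The rise was 1.52-fold (log2 fold change 0.61 ± 0.20, adjusted p = 0.0425), and it was not called in 13 of 20 alternatives, among them upper-quartile scaling and the omission of any 1 Ctrl library (adjusted p up to 0.146 over the alternatives). Without DBIC replicate 3, the highest library, the log2 fold change was 0.37 (adjusted p = 0.146). IDI1 (chr10:1039908-1049170, minus strand), the isomerase of isopentenyl diphosphate, was at 44.6, 41.9 and 40.7 CPM in Ctrl, 47.4, 45.9 and 48.1 CPM in DBIC, 49.0, 49.2 and 47.1 CPM in Hemin, and 37.7, 35.6 and 37.4 CPM in DBIC+Hemin. It was higher with either agent alone and lowest with both. Its rise under DBIC was 1.11-fold (adjusted p = 0.0194), with the call lost in 6 of 20 alternatives and a log2 fold change of 0.09 in place of 0.15 with upper-quartile factors.

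The remaining mevalonate genes had negative values under DBIC. ACAT2, the thiolase at the entry of the pathway, fell by 21.2%, mevalonate kinase MVK by 22.2% and FDPS by 14.5%, whereas PMVK and MVD, the next enzymes after MVK, did not pass the test (log2 fold changes -0.23 and -0.05, with 95% intervals from -0.45 to -0.02 and from -0.22 to 0.13). The call for MVK was lost in 6 of 20 alternatives (adjusted p up to 0.0865). In the annotation, the overlaps of ACAT2 with exons of SOD2 and TCP1 on the opposite strand add up to 35.8% of its exon bases. A base in both neighbours is counted with each. The use of strand in counting is not given in the sources used here, so reads of ACAT2 cannot be told apart there from those of its neighbours. In GENCODE 29, 8 pseudogenes are named after FDPS, 3 after CYP51A1, 2 after HSD17B7 and 1 after SCD, and these could share reads with the genes.

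The 3 squalene steps all fell under DBIC. FDFT1, the squalene synthase, fell by 23.6% (log2 fold change -0.39 ± 0.05, adjusted p = 0.000163). SQLE, the squalene epoxidase, fell by 12.8% and the lanosterol synthase LSS by 13.1%. The ranges of the DBIC and Ctrl libraries did not overlap for any of these 3 genes. FDFT1 was at 66.1 to 69.6 CPM in Ctrl and 49.6 to 53.0 CPM in DBIC. How often such ranges part over all genes was not counted.

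In the sterol ring steps, 3 of 8 genes fell and the others did not pass. NSDHL, a sterol dehydrogenase, fell by 11.5%, with its call lost in 2 of 20 alternatives (log2 fold change -0.12 in place of -0.18 with TPM), and EBP, the sterol isomerase, by 13.3%. CYP51A1, the lanosterol demethylase, fell by 12.4% with an adjusted p of 0.0498 that rose above 0.05 in 9 of 20 alternatives. Its overlaps with exons of 2 coding genes on the same strand, known only by clone names, add up to 82.1% of its exon bases. A base in both of those genes is counted with each. DHCR7, the dehydrocholesterol reductase, was at 30.1 to 42.3 CPM in Ctrl and 22.2 to 27.1 CPM in DBIC, and its log2 fold change of -0.45 ± 0.16 did not pass (adjusted p = 0.0522). SC5D, a sterol desaturase, swung within groups, from 8.78 to 15.5 CPM in Ctrl and from 7.53 to 14.5 CPM in DBIC, and its interval of log2 fold change ran from -1.30 to 0.55. Replicate 3 was the lowest library for SC5D in Ctrl, Hemin and DBIC+Hemin.

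**Figure D2:**
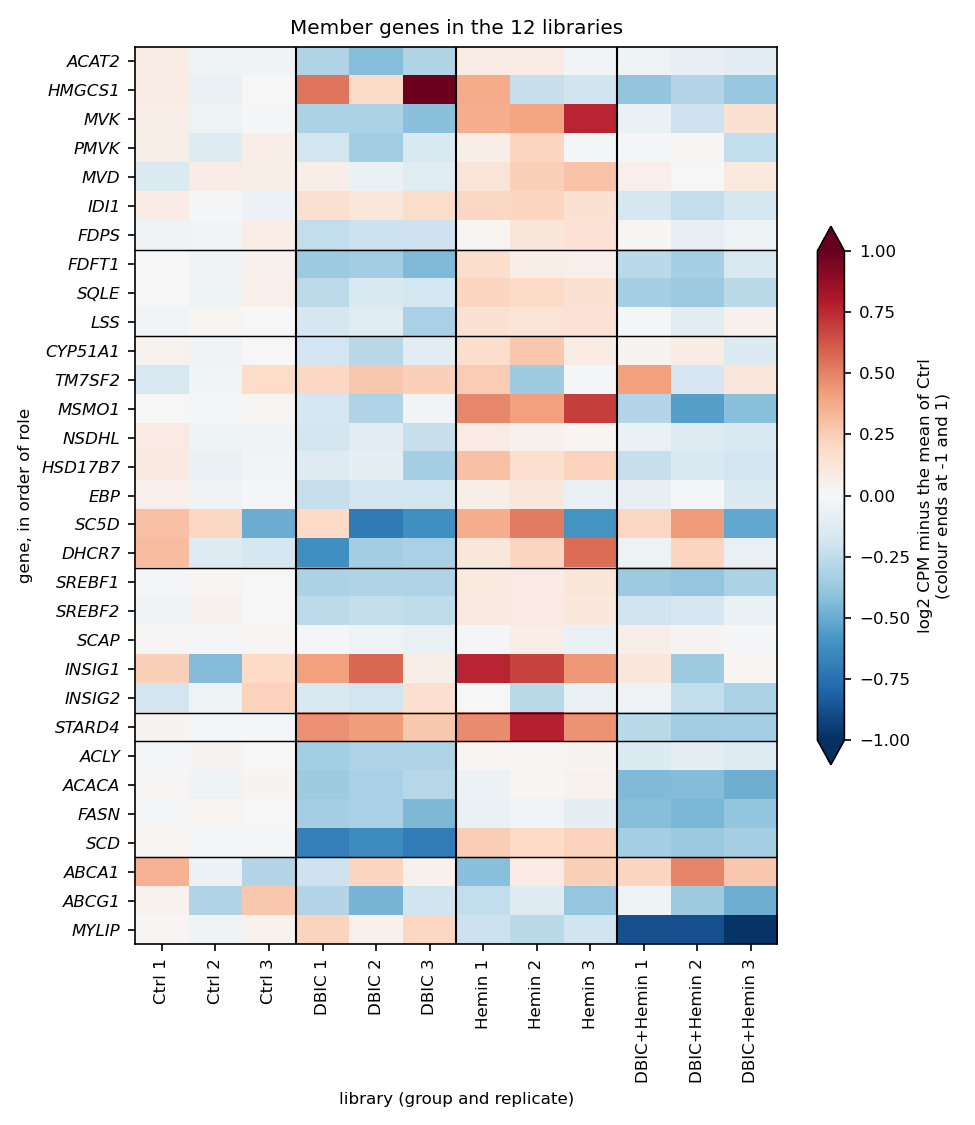
Log2 CPM of the 31 genes in the 12 libraries minus the mean of the 3 Ctrl libraries, with red for higher and blue for lower, genes in order of role (lines part the roles) and libraries by group. SCD is blue in all 3 DBIC libraries, STARD4 is red in DBIC and in Hemin and blue in DBIC+Hemin, and SC5D varies within each group.

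Both SREBF genes fell under DBIC, whereas SCAP did not pass the test. SREBF1 (chr17:17810399-17837002, minus strand) was at 215, 221 and 219 CPM in Ctrl, 175, 177 and 176 CPM in DBIC, 233, 231 and 237 CPM in Hemin, and 169, 167 and 176 CPM in DBIC+Hemin. The 2 groups with DBIC lay below Ctrl, and the Hemin libraries lay above Ctrl. SREBF1 fell by 19.3% under DBIC (log2 fold change -0.31 ± 0.03, adjusted p = 3.75e-06), and exons of RAI1 on the opposite strand cover 6.92% of its exon bases. SREBF2 (chr22:41833079-41907308, plus strand) was at 150.2, 159 and 154 CPM in Ctrl, 129, 131 and 129 CPM in DBIC, 164, 163 and 166 CPM in Hemin, and 134, 137 and 147 CPM in DBIC+Hemin. Here the DBIC libraries were lowest and the Hemin libraries highest, and SREBF2 fell under DBIC with a log2 fold change of -0.25 ± 0.04 (adjusted p = 0.00022). The 95% interval of log2 fold change for SCAP, the escort of the precursors, was -0.13 to 0.04.

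INSIG1 (chr7:155297776-155310235, plus strand), itself a classical SREBP target, was at 31.8, 19.8 and 30.9 CPM in Ctrl, 35.9, 40.2 and 28.1 CPM in DBIC, 45.9, 43.3 and 36.5 CPM in Hemin, and 29.2, 21.0 and 27.2 CPM in DBIC+Hemin. Replicate 2 was the lowest library in both Ctrl and DBIC+Hemin, and the DBIC range overlapped that of Ctrl. Its log2 fold change was 0.34 ± 0.20 under DBIC (adjusted p = 0.233) and 0.61 ± 0.20 under Hemin (adjusted p = 0.159). INSIG2, its paralog, was at 4.83 to 7.29 CPM over the 12 libraries and was called in none of the 6 comparisons.

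STARD4 (chr5:111496033-111512590, minus strand), a carrier that moves cholesterol between membranes, rose with either agent alone and was lowest with both. Its level was 17.1, 16.6 and 16.6 CPM in Ctrl, 23.3, 22.6 and 20.3 CPM in DBIC, 23.5, 29.2 and 23.1 CPM in Hemin, and 13.8, 13.1 and 13.2 CPM in DBIC+Hemin. The DBIC and Hemin groups lay above Ctrl in every library, and the DBIC+Hemin group lay below Ctrl in every library. The rise was 1.32-fold under DBIC (log2 fold change 0.39 ± 0.09, adjusted p = 0.0044) and had a log2 fold change of 0.59 ± 0.09 under Hemin (adjusted p = 0.00358).

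The promoters of SREBF2, STARD4 and INSIG1 are shown because SREBF2 is the one matched member whose window holds the sterol regulatory element as searched here, and because STARD4 and INSIG1 had the largest interaction values among the genes without it. The windows are from RefSeq on GRCh38.p14, run 5′ to 3′ on the gene's strand, and hold 250 bases before and 50 bases from the annotated start. Capitals mark TCACNCCAC or TCACCCCAC (sterol regulatory element), CCAAT (NF-Y box) and GGGCGG (Sp1 box), each searched on both strands. The SREBF2 window is at chr22:41832855-41833154 on the plus strand, the STARD4 window at chr5:111512486-111512785 on the minus strand and the INSIG1 window at chr7:155297628-155297927 on the plus strand.
SREBF2: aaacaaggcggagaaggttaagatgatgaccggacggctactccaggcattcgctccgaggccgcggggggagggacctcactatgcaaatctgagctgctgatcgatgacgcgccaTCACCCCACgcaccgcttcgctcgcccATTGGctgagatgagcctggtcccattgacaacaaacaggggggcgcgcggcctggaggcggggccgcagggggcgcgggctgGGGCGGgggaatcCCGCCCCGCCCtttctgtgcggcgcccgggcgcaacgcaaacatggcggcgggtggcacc
STARD4: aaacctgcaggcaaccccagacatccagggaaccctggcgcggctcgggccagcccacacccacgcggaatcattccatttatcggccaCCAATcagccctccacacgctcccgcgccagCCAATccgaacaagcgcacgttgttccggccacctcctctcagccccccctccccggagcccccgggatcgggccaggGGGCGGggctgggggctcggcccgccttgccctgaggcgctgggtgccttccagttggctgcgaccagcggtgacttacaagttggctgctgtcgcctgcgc
INSIG1: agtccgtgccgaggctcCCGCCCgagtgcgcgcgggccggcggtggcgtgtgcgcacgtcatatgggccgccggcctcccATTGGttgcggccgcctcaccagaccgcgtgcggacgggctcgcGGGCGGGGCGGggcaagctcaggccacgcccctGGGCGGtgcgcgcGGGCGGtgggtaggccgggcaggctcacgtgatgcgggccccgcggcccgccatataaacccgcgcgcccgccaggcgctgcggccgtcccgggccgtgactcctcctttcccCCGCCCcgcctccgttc

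In the SREBF2 window TCACCCCAC begins 133 bases before the start, with a CCAAT box on the opposite strand 106 bases before it. STARD4 has a pair of CCAAT boxes, at 161 and 130 bases before the start. Windows were found for 26 of the 31 members, 35 in all. TCACNCCAC was in the windows of 1 of these 26 genes (2.86% of the members' windows against 1.13% of all 35116 windows). CCAAT was in those of 20 genes (68.6% of the members' windows against 34.6% of all) and GGGCGG in those of 25 genes (91.4% against 45.0%). TCACCCCAC is one of the spellings of TCACNCCAC, so these 2 counts are not separate. ACAT2, FDFT1, SQLE, FASN and ABCG1 had no entry in the table of promoters. The counts are a description of letters in a short window, with no test, and the absence of a match says only that these letters are not there.

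Hemin alone raised a few genes of the pathway. In Hemin against Ctrl, 6 members rose, namely MVK, IDI1, SQLE, MSMO1, STARD4 and SCD, and 0 fell. Over all genes, 1.47% were called higher and 2.59% lower. Without adjustment, 14 members were higher and 1, MYLIP, was lower at a p under 0.05, and DESeq2 called 8 higher and 1 lower. The members' median log2 fold change was 0.09, against 0.00 for all genes, and 17 of the 18 synthesis enzymes had a positive value.

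MSMO1 (chr4:165327623-165343160, plus strand), the sterol methyl oxidase, showed the largest rise of a synthesis enzyme under Hemin. It was at 11.5, 11.4 and 11.5 CPM in Ctrl, 10.1, 9.20 and 11.3 CPM in DBIC, 16.2, 15.4 and 18.8 CPM in Hemin, and 9.24, 7.68 and 8.46 CPM in DBIC+Hemin. All 3 Hemin libraries were above every other library. The rise was 1.47-fold (log2 fold change 0.55 ± 0.10, adjusted p = 0.00995). MVK rose by a like amount, 1.44-fold, with 22.4 to 29.6 CPM in Hemin and 16.6 to 18.1 CPM in Ctrl, but it lost its call in 5 of 20 alternatives. SQLE rose 1.14-fold and lost its call in 11 of 20 alternatives, and IDI1 also rose 1.14-fold and lost it in 10 of 20. The calls for MSMO1, STARD4 and SCD were kept in all 20.

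With both agents, the genes of fatty acid synthesis, both SREBF genes and 4 of the 18 synthesis enzymes were below Ctrl. In DBIC+Hemin against Ctrl, 12 members fell and 0 rose (5.66% of all genes were called higher and 6.74% lower). Without adjustment, 0 members were higher and 14 lower at a p under 0.05, and DESeq2 called 0 higher and 12 lower. The 12 were IDI1, FDFT1, SQLE and MSMO1, both SREBF genes, STARD4, MYLIP and the 4 genes of fatty acid synthesis. The other synthesis enzymes did not pass, and MVK, LSS and CYP51A1 had log2 fold changes of -0.04, -0.02 and -0.01. The call for STARD4 was lost in 6 of 20 alternatives, among them the omission of any 1 Ctrl library (adjusted p up to 0.0948), that for SREBF2 in 5, for IDI1 in 2 and for MSMO1 in 1. FASN fell by 25.5%, ACACA by 27.0%, SCD by 21.3% and ACLY by 8.06%. With the deposited TPM and limma, the log2 fold change of ACACA was -0.69 in place of -0.45 here, and -0.74 in place of -0.45 in DBIC+Hemin against Hemin.

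**Figure D3:**
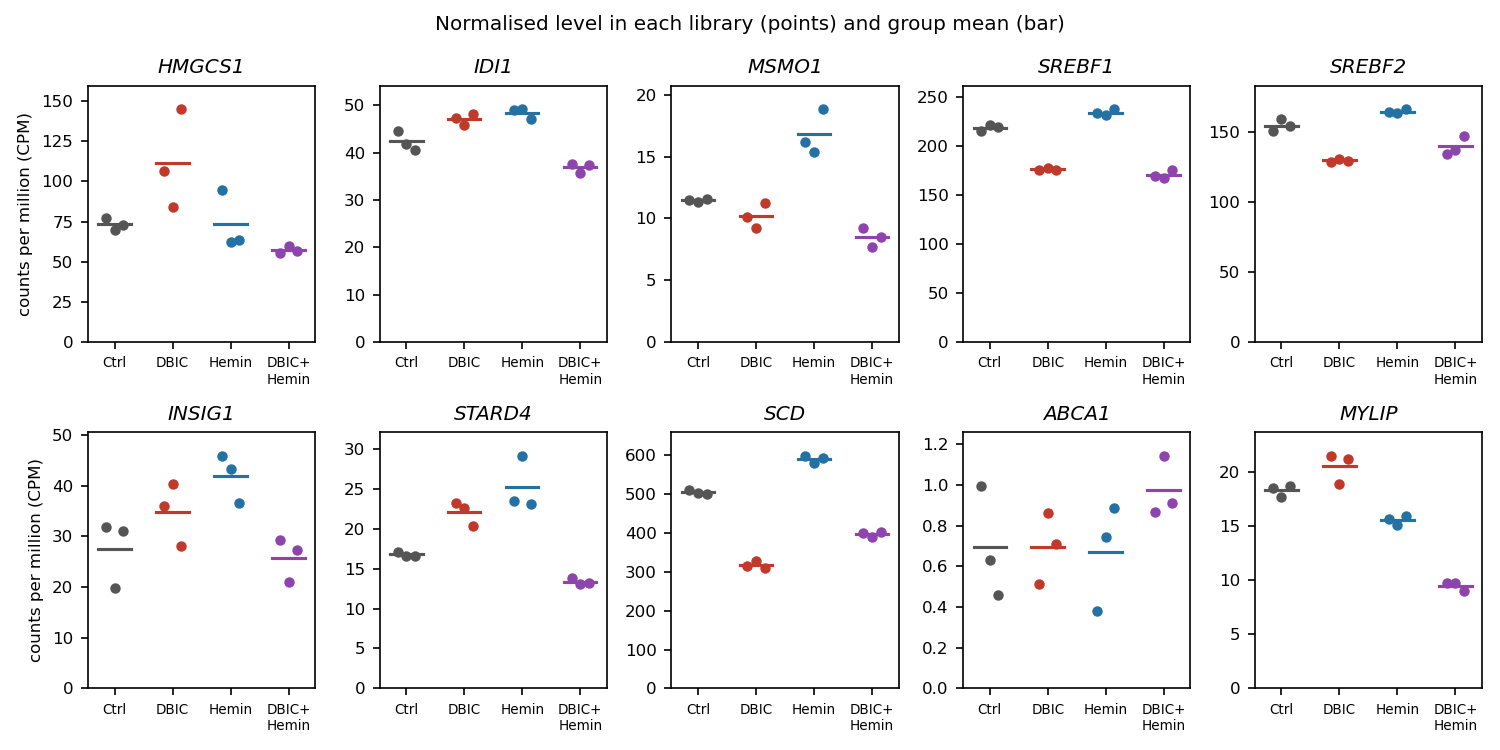
CPM in each library (points) and the group mean (bars) for 10 members in the 4 groups, with each axis starting at 0. STARD4 is higher in DBIC and Hemin than in Ctrl and lowest in DBIC+Hemin, whereas SREBF1 and SREBF2 are low in both groups with DBIC.

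With hemin added to DBIC, members were called in both directions, and the share called lower was near that over all genes. In DBIC+Hemin against DBIC, 7 members rose (22.6%) and 5 fell (16.1%), beside 13.5% of all genes called higher and 18.4% lower. Upper-quartile factors gave 12 members higher and 4 lower, and fewer rose with TPM and limma. ACAT2, FDPS, LSS, DHCR7, SREBF2, ACLY and SCD rose, with log2 fold changes of 0.11 to 0.47, and the calls for DHCR7, SREBF2 and LSS were lost in 13, 11 and 6 of 20 alternatives. HMGCS1, IDI1, STARD4, ACACA and MYLIP fell, and the call for ACACA was lost in 4 of 20 (adjusted p up to 0.186). The log2 fold change of ACACA was -0.13, against -0.07 with upper-quartile factors and -0.29 with TPM. That of DHCR7 was 0.24 in place of 0.47 with TPM, and that of SREBF2, 0.11, was 0.07 without DBIC+Hemin replicate 3 and 0.17 with upper-quartile factors. HMGCS1 fell by 48.8%, STARD4 by 39.4% and IDI1 by 21.7%. Those were the 3 members that rose under DBIC alone. Both comparisons use the same DBIC libraries, so their values are not independent.

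The comparison of DBIC+Hemin with Hemin gives the effect of DBIC in cells that have hemin. Its fold changes compare none of the libraries of DBIC against Ctrl. Both tests, however, come from the same fit over all 12 libraries, which share their estimate of the spread per gene. The calls of these comparisons are therefore not independent. Here 14 members fell and 0 rose, against 3.09% of all genes lower and 3.71% higher. Without adjustment, 22 members were lower and 0 higher at a p under 0.05, and DESeq2 called 15 lower and 0 higher. The median log2 fold change was -0.24 for the members, against 0.00 for all genes. Of the 18 synthesis enzymes, 17 had a negative value and 6 fell.

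The falls in these 14 genes differed widely in size. MSMO1 fell by 49.7% (log2 fold change -0.99 ± 0.10, adjusted p = 0.000189) and STARD4 by 47.1% (-0.92 ± 0.09, adjusted p = 0.000137). MYLIP fell by 39.0%, MVK by 32.4%, SCD by 32.8% and SQLE by 29.9%. HSD17B7, a sterol ketone reductase, fell by 27.3%. The calls for MVK and HSD17B7 were each lost in 2 of 20 alternatives. The smallest called fall of the 14 was that of ACLY, 9.24%.

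The members were sorted by whether DBIC was called to change them without and with hemin. Called lower in both were MVK, FDFT1, SQLE, both SREBF genes and all 4 genes of fatty acid synthesis, 9 members in all, a pattern of 2.22% of all genes tested. ACAT2, FDPS, LSS, CYP51A1, NSDHL and EBP were called lower without hemin only (14.8% of all genes), and MSMO1, HSD17B7 and MYLIP with hemin only (0.658%). IDI1 and STARD4 were called higher without hemin and lower with it (0.210%), and HMGCS1 was called higher without hemin only (16.7%). The other 10 members, among them DHCR7, SCAP and INSIG1, were called in neither setting, as were 61.7% of all genes. Of these differences between the settings, only those whose interaction passed, given next, were shown by a test.

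**Figure D4:**
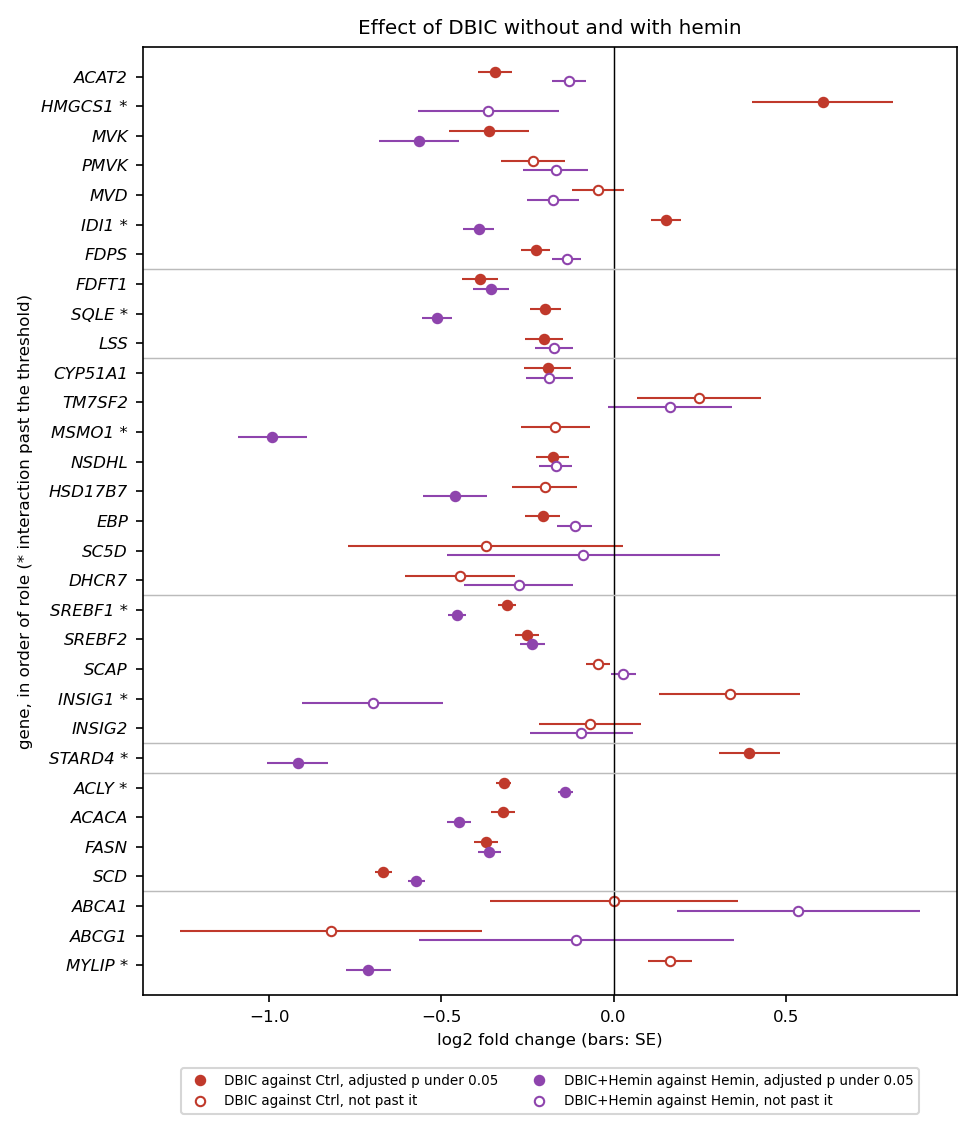
Log2 fold change (points) with its SE (bars) of the 31 genes for DBIC against Ctrl (red) and DBIC+Hemin against Hemin (purple), filled where the adjusted p was under 0.05, with an asterisk where the interaction passed. For FASN the values are -0.37 and -0.36, whereas for STARD4 they are 0.39 and -0.92.

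The interaction, which is the log2 effect of DBIC with hemin minus that without it, was called for 9 of 31 members, 8 of them lower and 1 higher. Over all genes, 10.2% were called lower and 6.40% higher. With upper-quartile factors, 6 members were lower and 3 higher, and 55.4% of all calls were higher in place of 38.5%. The interaction was lower for the enzymes HMGCS1, IDI1, SQLE and MSMO1, for SREBF1 and INSIG1, for STARD4 and for MYLIP. It was higher for ACLY alone (0.18 ± 0.03, adjusted p = 0.00242), whose fall under DBIC was smaller with hemin.

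STARD4 had the largest value of the members. Its DBIC effect was a rise of 0.39 without hemin and a fall to -0.92 with it, an interaction of -1.31 ± 0.12 (adjusted p = 3.96e-05). IDI1 changed direction in the same way, from 0.15 to -0.39 (interaction -0.54 ± 0.06, adjusted p = 0.000169). For MSMO1 the interaction was -0.82 ± 0.14 (adjusted p = 0.0023), and for SQLE it was -0.31 ± 0.06 (adjusted p = 0.0057). These 4 calls were kept in all 19 alternatives.

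For INSIG1 and HMGCS1, large values rested on a wide spread. INSIG1 had an interaction of -1.04 ± 0.29 (adjusted p = 0.037), lost in 7 of 19 alternatives (adjusted p up to 0.0836). HMGCS1 had one of -0.97 ± 0.29 (adjusted p = 0.0494), lost in 15 of 19 (adjusted p up to 0.105). The value for SREBF1 was small, -0.15 ± 0.04 (adjusted p = 0.0172), and was not called under upper-quartile scaling (-0.09, adjusted p = 0.127) or with the TPM values. SREBF2 and FASN had interactions of 0.02 ± 0.05 and 0.01 ± 0.05, neither called.

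MYLIP (chr6:16129125-16148248, plus strand) was the LXR target with the clearest change. It encodes a ubiquitin ligase that marks lipoprotein receptors for decay. It was at 18.5, 17.7 and 18.7 CPM in Ctrl, 21.5, 18.8 and 21.2 CPM in DBIC, 15.7, 15.1 and 15.9 CPM in Hemin, and 9.73, 9.72 and 9.03 CPM in DBIC+Hemin. The DBIC+Hemin libraries were lowest by a wide margin, and DBIC libraries were above all Ctrl libraries. MYLIP did not pass under DBIC (log2 fold change 0.16 ± 0.06, adjusted p = 0.0632) or Hemin alone (-0.24 ± 0.06, adjusted p = 0.0673). With both agents it fell by 48.1% against Ctrl (adjusted p = 5.66e-06), and its interaction was -0.88 ± 0.09 (adjusted p = 7.25e-05).

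ABCA1 and ABCG1, which export cholesterol and phospholipid to lipoproteins, were near the lower end of what these libraries can measure. ABCA1 (chr9:104781002-104928237, minus strand) was at 0.993, 0.630 and 0.461 CPM in Ctrl, 0.515, 0.861 and 0.709 CPM in DBIC, 0.380, 0.742 and 0.889 CPM in Hemin, and 0.865, 1.14 and 0.912 CPM in DBIC+Hemin. The DBIC libraries lay below the DBIC+Hemin libraries, with no call for the difference (log2 fold change 0.48 ± 0.35, adjusted p = 0.34), and the other pairs of groups overlapped. Its 95% interval of log2 fold change was -0.83 to 0.83 under DBIC, and that of ABCG1 was -1.83 to 0.19, so changes within those ranges could not be seen at this depth. TM7SF2, a sterol reductase, was at 5.37 to 9.46 CPM over all libraries and was called in none of the 6 comparisons.

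**Figure D5:**
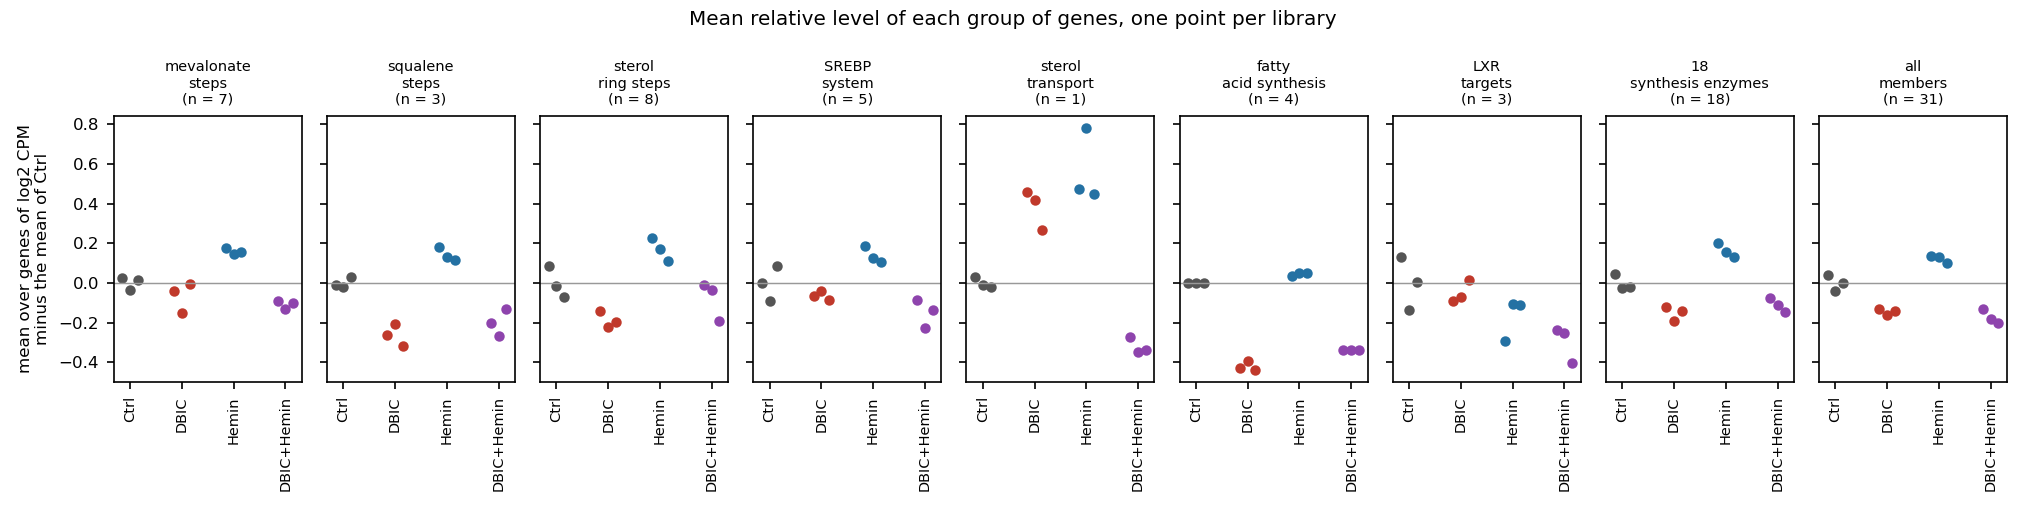
Mean over the genes of each group of log2 CPM minus the mean of Ctrl, with 1 point per library, colours for the 4 treatments and the number of genes above each panel. The fatty acid genes are at -0.44 to -0.40 in DBIC and near -0.34 in DBIC+Hemin, and the 18 synthesis enzymes are at 0.13 to 0.20 in Hemin.

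The plot of role means by library shows the groups as wholes. The 18 synthesis enzymes lay at -0.02 to 0.05 in Ctrl, -0.19 to -0.12 in DBIC, 0.13 to 0.20 in Hemin and -0.15 to -0.07 in DBIC+Hemin, on the scale of mean log2 CPM relative to Ctrl. The DBIC and DBIC+Hemin libraries overlapped in this mean, and the Hemin libraries stood above all others. The 4 fatty acid genes were tighter, and both groups with DBIC were far below the others. Since the genes were chosen by pathway with earlier results known, these means are given without a test.

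Other genes of the pathway were counted from fixed lists. Of 29 other SREBP genes and partners, 10 fell and 1 rose under DBIC, where 17.2% of all genes were called lower and 20.0% higher. In DBIC+Hemin against Hemin 6 of the 29 fell, where 3.09% of all genes were called lower. PNPLA3, a lipase and SREBP-1 target, fell by 41.9% under DBIC and by 54.0% in DBIC+Hemin against Hemin. LBR, which is also a sterol reductase, fell by 29.1% under DBIC and ERLIN2, which helps to degrade sterol-regulated proteins, by 28.4%. ERLIN2 rose 1.49-fold in DBIC+Hemin against DBIC and was at 47.4 to 48.7 CPM there, as against 43.0 to 47.8 CPM in Ctrl and 30.2 to 34.4 CPM in DBIC. LPIN1, a phosphatidate phosphatase and SREBP target, rose 1.27-fold under Hemin and had an interaction of -0.45 ± 0.07 (adjusted p = 0.00126).

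The branches of the pathway and the LXR system were counted in the same way. Of 12 genes in the branches from farnesyl diphosphate (dolichol, ubiquinone and protein prenylation), 4 rose and 1 fell under DBIC, beside 20.0% higher and 17.2% lower over all genes. Of the LXR list of 12 genes, 11 were tested, of which 4 fell and 2 rose under DBIC. These counts were not tested against the shares over all genes. The largest of these was RXRA, the partner receptor of LXR, which fell by 33.4% under DBIC (adjusted p = 1.4e-05) and had an interaction of 0.36 ± 0.08 (adjusted p = 0.0108). The difference between these lists was not tested.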

How the data were processed

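Total RNA of 12 A375 libraries (4 groups of 3) was sequenced, and groups came from the labels. The authors deposited 1 table with a raw count of reads per gene, a TPM value and an FPKM value for each library. Per the labels the processing notes name Trim Galore, Subread, featureCounts and hg38, and strand and annotation are not given in the sources used here. The deposited FPKM served only as a check. Among 10121 genes above 200 counts throughout, the factor from count to FPKM differed between libraries by a median of 1.09. It differed by 1.58 for DHCR7, the only member over 1.5, and by 1.44 for ACACA. The length behind TPM and FPKM may therefore differ between libraries, and its part in the TPM results was not tested.

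The 20263 genes were filtered by filterByExpr, which left 14287. Counts were tested in R 4.3.3 with edgeR 4.0.16 (TMM factors, quasi-likelihood F tests, 1 mean per group over all 12 libraries, 8 residual degrees of freedom), with Benjamini-Hochberg adjustment over all genes and a threshold of 0.05. The SE was derived from the fold change and F (size of the log2 value divided by the square root of F), and 95% intervals use 8 degrees of freedom. CPM use TMM-scaled library sizes, and 3 counts, the limit of a count of 0, are under 0.1 CPM. The intervals cover the spread between libraries. Alternatives were DESeq2 1.42.0 with its Wald test, upper-quartile factors, library totals, no low-count filter, at least 10 counts in every library, only the groups compared, a replicate block and the omission of each library. A test of log2(TPM + 1) with limma 3.58.1 was added after seeing the data. The steps were tested on simulated data. The members and lists were chosen with earlier results of these data known. Values in every library are given for members called under DBIC or in the interaction with an absolute log2 value of at least 0.4, and for SREBF1, SREBF2, INSIG1 and ABCA1, and genes of the other lists are named by the same limit. Gene positions in the table matched GENCODE 29 exactly for 25 of 31 members.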

Additional observations from a re-analysis of the deposited data

Results flagged for a closer look

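The effect of DBIC differed between cells without and with hemin, by the interaction test, for 9 of 31 members and for 9 of the tested genes of the other lists of the pathway (29, 12 and 11 genes), beside 10.2% lower and 6.40% higher over all genes. With the other lists and both directions pooled, the share called is near that over all genes, but the directions differed by list. Of the 29 other SREBP genes and partners, 5 were called higher and 1 lower. Of the 12 branch genes 0 were called higher and 1 lower, and of the 11 LXR genes 1 and 1. The log2 values of the interaction were -1.31 for STARD4, -1.04 for INSIG1, -0.97 for HMGCS1, -0.88 for MYLIP, -0.82 for MSMO1, -0.54 for IDI1, -0.31 for SQLE, -0.15 for SREBF1 and 0.18 for ACLY. Among the other genes they were -0.45 for LPIN1, 0.46 for ERLIN2, 0.36 for RXRA and 0.23 for LBR, which the limit of size for named genes takes in, and -0.33 for OSBP, 0.32 for NPC2, -0.29 for DHDDS, 0.25 for NPC1 and 0.22 for MBTPS1, which lie outside it and were named after their values were seen. For STARD4, IDI1 and HMGCS1, the effect of DBIC was a called rise without hemin and had a negative value with it, which was a called fall for STARD4 and IDI1. With 3 libraries per group, single libraries far from the rest of their group were not tested for.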

How the results depend on the processing

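No called member changed direction in any alternative, and 12 of 18, 3 of 6, 8 of 12, 8 of 12, 12 of 14 and 6 of 9 calls were kept in all of them for DBIC against Ctrl, Hemin against Ctrl, DBIC+Hemin against Ctrl, DBIC+Hemin against DBIC, DBIC+Hemin against Hemin and the interaction. The number of members higher in DBIC against Ctrl was 1 in place of 3 with upper-quartile factors or with only the groups compared, and 1 to 4 when 1 library was left out. Members higher in Hemin against Ctrl were 3 in place of 6 with only the groups compared, and 3 to 7 without 1 library, with 3 when replicate 2 or 3 of Ctrl or replicate 3 of Hemin was left out. DESeq2 called 1 member lower there in place of 0, as did 1 omission (range 0 to 1, the 1 without DBIC replicate 2). Members higher in DBIC+Hemin against DBIC were 12 with upper-quartile factors and 4 with TPM and limma in place of 7. Members higher in the interaction were 2 with DESeq2 and 3 with upper-quartile factors in place of 1, and 1 to 2 without 1 library. The other counts stayed within 1.5 times in every alternative. The cause of these moves was not tested.

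Upper-quartile factors moved the share of all calls that were higher from 53.8% to 40.0% in DBIC against Ctrl, from 42.4% to 59.2% in DBIC+Hemin against DBIC and from 38.5% to 55.4% in the interaction. Library totals moved it from 45.6% to 34.4% in DBIC+Hemin against Ctrl and from 54.6% to 42.3% in DBIC+Hemin against Hemin. Replicate numbers did not pair the samples: 18 same-numbered pairs had correlations of deviations from -0.06 to 0.06, and 6 of 12 libraries lay closest to their own number. With a replicate block, 14 members were lower and 2 higher in DBIC against Ctrl, 4 higher in Hemin against Ctrl, 12 lower in DBIC+Hemin against Ctrl, 5 higher and 6 lower in DBIC+Hemin against DBIC, 14 lower in DBIC+Hemin against Hemin, and 7 lower and 1 higher in the interaction. Depth limits ABCA1 and ABCG1, at about 1 CPM or less.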
